A study of Mus musculus with 13 samples.

Results

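The TAM family was examined in mouse microglia as 5 of the 19737 genes in a table of expression values: the receptors Axl, Mertk and Tyro3 and the ligands Gas6 and Pros1. The members were chosen by gene symbol, and all 5 were measured above 0 in each of 13 libraries. The RNA was depleted of ribosomal RNA and came from microglia, the resident macrophages of the brain. One group was wild type (n = 3) and another 5xFAD (n = 2), each given AAV PHP.eB-EGFP, a viral vector for the green fluorescent protein EGFP. A further 5xFAD group (n = 4), called circRNA here, was given AAV PHP.eB-circPOLR2A, a vector for a circular RNA. Its treatment labels end in (9,10), (9,11), (9,12) and (9,13), 1 for each library, while the series design names (9,10) for the whole group. The last number rises with the replicate number. The construct may not have been the same in all 4, or the labels may have been filled in by error, and this cannot be told here. The remaining group was 5xFAD; PKR KO (n = 4), which lacks a kinase that double-stranded RNA activates, and for which the labels name no vector. The 5xFAD mouse is a model of amyloid disease whose transgenes are driven by the neuronal Thy1 promoter, and it develops amyloid plaques. The labels used here do not give the age of the mice or say that replicates came from separate animals, so p-values measure only the spread between these samples. The design sets the disease model, the circular RNA (delivered to neurons, by the series title) and loss of PKR beside each other in microglia. In comparisons with the PKR knockout group, any effect of a vector and loss of PKR cannot be told apart.

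TAM receptors are tyrosine kinases that bind phosphatidylserine on dying cells and on membranes through a bridging ligand. Gas6 binds all of the receptors, while Pros1 (protein S) binds Mertk and Tyro3 and is not regarded as an Axl ligand. Mertk is the receptor of resting phagocytosis and is part of the homeostatic microglial signature. Axl is low in resting microglia and is known as a gene of inflamed and plaque-associated microglia. Tyro3 is mainly neuronal in the brain.

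The values are FPKM (fragments scaled by gene length and by library size), so levels may be compared between genes per unit of length. Depth, recovered from the steps between low values, lay between 45.2 and 70.0 M (mega) fragments. Eif2ak2, the gene for PKR, was at 3.31 to 4.61 FPKM in the knockout libraries, 6.49 to 8.11 in the other 5xFAD libraries and 4.14 to 5.23 in wild type, so RNA from the gene was still counted in the knockout, whose range overlapped wild type. Which exons were deleted is not given in the sources used here, so gene totals do not check this label. All 8 microglial markers were present in each group, at a summed level of 2481 to 4110 FPKM for each library. Wild type replicate 3 stood apart: its microglial marker sum was the lowest of the 13 libraries, at 2481 FPKM. Its sums of neuron (17.1), astrocyte (216), oligodendrocyte (1534), endothelial (98.5) and mural (108) markers were the highest. Changes of the members against wild type are therefore also given without this library. In bulk samples, fewer cells of a type and less RNA for each cell cannot be told apart.

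The promoters of Axl and Mertk are shown because these receptors share a ligand, Gas6, and their levels are contrasted here. All 5 members matched an entry in the RefSeq table (GRCm38.p6), from which the 250 bases before the annotated start were read. Capitals mark matches, on either strand, to GGGCGG (a GC box) or GAGGAA (the core of PU.1 sites, the factor that specifies macrophages). The Axl promoter lies at chr7:25788734-25788983 on the minus strand, and the Mertk promoter at chr2:128698665-128698914 on the plus strand.
Axl: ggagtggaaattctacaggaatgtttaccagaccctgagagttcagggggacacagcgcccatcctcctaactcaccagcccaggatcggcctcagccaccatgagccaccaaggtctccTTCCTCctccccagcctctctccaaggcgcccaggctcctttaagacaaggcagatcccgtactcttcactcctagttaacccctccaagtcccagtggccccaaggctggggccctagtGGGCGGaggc
Mertk: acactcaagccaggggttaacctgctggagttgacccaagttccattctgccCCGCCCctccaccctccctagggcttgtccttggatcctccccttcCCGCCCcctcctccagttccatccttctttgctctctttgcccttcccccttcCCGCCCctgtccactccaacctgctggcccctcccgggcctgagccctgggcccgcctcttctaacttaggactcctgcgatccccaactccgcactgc
The Axl window held 1 GC box, 5 to 10 bases before the start, and 1 GAGGAA, 125 to 130 bases before it and on the opposite strand. The Mertk window held 3 GC boxes and no GAGGAA. Of 32851 windows of this length, 32.7% held a GC box and 23.3% held GAGGAA. The AP-1 motif (TGANTCA, in 6.75% of windows), the core of interferon response elements (GAAA on either side of 2 free bases, in 2.98%) and AGGTCA (bound by nuclear receptors such as LXR, in 14.0%) matched in none of the 5 members' windows, on either strand. The number of CpG dinucleotides was 5 for Axl and 7 for Mertk, near the median of 6 over all windows, and 24 for Tyro3, 10 for Gas6 and 15 for Pros1. These matches describe letters and not bound sites.

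Axl was the member that changed. Its gene lies on chromosome 7 (25757273 to 25788705, minus strand, GRCm38). Its level in wild type was 7.75, 6.41 and 11.8 FPKM. In 5xFAD with the EGFP vector it was 65.1 and 57.4 FPKM, in the circRNA group 71.0, 79.2, 89.2 and 63.9 FPKM, and in PKR knockout 80.7, 95.4, 69.3 and 91.5 FPKM. Every 5xFAD library was above every wild type library, and the lowest 5xFAD value was 57.4 FPKM. Differences were tested with limma on log2(FPKM + 1), with p-values adjusted by the Benjamini-Hochberg method over 10817 genes and a threshold of 0.05.

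In 5xFAD against wild type, both with EGFP, Axl rose to 61.2 ± 5.43 FPKM (SD, n = 2) from a wild type level of 8.64 ± 2.79 (SD, n = 3). Its log2 change was 2.73 (SE 0.21, 95% interval 2.26 to 3.19, limma adjusted p = 5.17e-06), the 20th largest rise among the tested genes. It was the only 1 of the 5 members to pass, in a comparison where 14.0% of all tested genes passed and 7.65% rose. The groups did not overlap for 2 of the 5 members, Axl and Gas6, against 37.6% of all genes. Against wild type, Axl rose by a log2 change of 3.02 with circRNA (SE 0.18, limma adjusted p = 2.01e-07) and of 3.17 in PKR knockout (SE 0.18, limma adjusted p = 1.16e-07). In those comparisons Axl was again the only member called, with 25.8% and 37.0% of all genes called (17.8% and 17.5% higher). It was also the only member whose groups did not overlap there, against 28.2% and 40.9% of all genes. These 3 comparisons share the wild type libraries. Without wild type replicate 3, which had the highest wild type Axl value, the changes were 2.95, 3.24 and 3.39.

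Cells other than microglia also express Axl, among them endothelial and mural cells, astrocytes and border macrophages. In 5xFAD with EGFP against wild type, the summed level of the 5 endothelial markers was 21.1 to 29.3 against 43.6 to 98.5 FPKM, and that of the 5 mural markers 17.9 to 31.3 against 49.2 to 108 FPKM. The 5 border macrophage markers summed to 15.2 to 20.3 against 29.7 to 47.5 FPKM, and the 5 astrocyte markers to 112 to 164 against 60.8 to 216 FPKM. Markers of monocytes and neutrophils summed to at most 16.4 FPKM in any library. No marker in these lists was at 0 throughout a group. In that comparison 3 of 5 endothelial markers, all 4 tested mural markers and all 4 tested border macrophage markers fell, and 1 of 5 astrocyte markers rose while 4 did not pass. With the mean level of neuron, astrocyte, oligodendrocyte, endothelial and mural markers as a covariate, the Axl change was 2.82 (limma adjusted p = 6.47e-07).

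**Figure D1:**
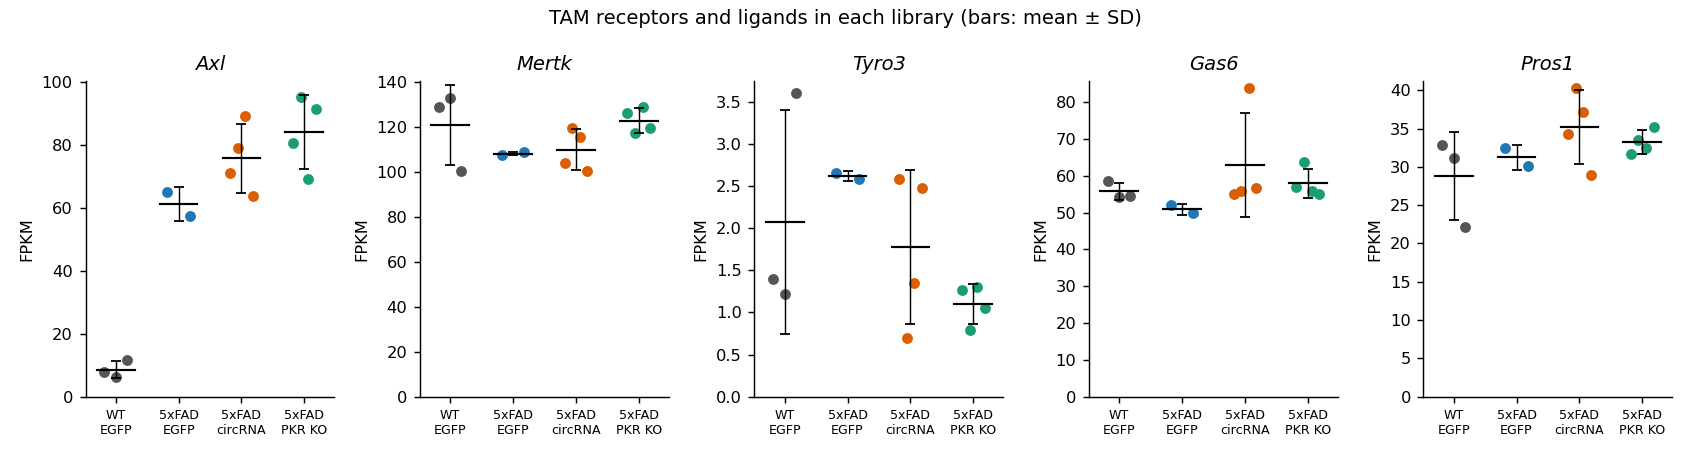
Level of each TAM receptor and ligand (y axis, FPKM, from 0) by group (x axis), with 1 point for each library and bars for the mean ± SD. Axl is at 6.41 to 11.8 FPKM in wild type and at 57.4 to 95.4 FPKM in the 10 libraries from 5xFAD mice, while the ranges of Mertk and Pros1 in wild type overlap those of the 5xFAD libraries.

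Within 5xFAD, no difference in Axl passed the threshold. Against the EGFP vector its log2 change was 0.30 with circRNA (95% interval -0.15 to 0.74, limma adjusted p = 0.739), where 0.0% of genes were called, 0 of the 5 members passed and 0 had an unadjusted p under 0.05, against 4.83% of all genes. With PKR knockout it was 0.45 (95% interval 0.0045 to 0.89, limma unadjusted p = 0.0481, adjusted p = 0.380). The 4 knockout libraries (69.3 to 95.4 FPKM) were all above the pair with EGFP (57.4 and 65.1 FPKM). The oligodendrocyte marker sum was 213 to 359 FPKM in the knockout and 597 and 641 FPKM in the pair. Over the 10 libraries from 5xFAD mice the Axl level had a correlation of -0.72 with this sum and of -0.70 with the neuron sum. With the other sums it was 0.50 (microglia), 0.44 (endothelial), 0.33 (monocytes and neutrophils), 0.25 (astrocytes), 0.10 (mural) and -0.07 (border macrophages). With the marker covariate, which holds the oligodendrocyte and neuron lists, the Axl change in PKR knockout against EGFP was 0.55 (limma adjusted p = 0.177). Under quantile normalization it was 0.27 (limma adjusted p = 0.541). In that comparison the groups did not overlap for 4 of the 5 members, against 34.8% of all genes, and limma called 0 of the 5 members and 0.0832% of all genes. Axl and Tyro3 had an unadjusted p under 0.05 there, as had 13.0% of all genes. Between circRNA and PKR knockout the Axl difference was -0.15 (95% interval -0.51 to 0.21, limma adjusted p = 0.606; -0.24 to -0.07 with 1 library left out), and limma called 0 of the 5 members, 0 of them with an unadjusted p under 0.05 (25.5% of all genes), and 6.19% of all genes. For each of the 5 members these groups overlapped, while 19.5% of all genes had groups that did not. Library names stand in the labels of PKR knockout alone, and its labels name no vector. Any library batch, any effect of a vector and the knockout therefore cannot be told apart.

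Mertk, on chromosome 2 (128698956 to 128802894, plus strand), was the most abundant member in every library. It was at 129, 133 and 100.7 FPKM in wild type and at 108 and 109 FPKM in 5xFAD with EGFP. The circRNA libraries had 104, 120, 115 and 100.4 FPKM, and the PKR knockout libraries 126, 117, 129 and 119 FPKM. The wild type range covered that of the EGFP pair and all but the lowest circRNA library. The lowest wild type value was that of replicate 3.

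Mertk did not pass the threshold in any of the 6 comparisons. In 5xFAD against wild type with EGFP its log2 change was -0.15 (SE 0.14, 95% interval -0.44 to 0.15, limma adjusted p = 0.535), with means of 108 ± 0.730 FPKM (SD, n = 2) and 121 ± 17.7 FPKM (SD, n = 3). Against wild type it was -0.13 with circRNA (limma adjusted p = 0.447) and 0.03 in PKR knockout (limma adjusted p = 0.835). Against EGFP in 5xFAD it was 0.02 with circRNA (limma adjusted p = 0.966) and 0.18 in PKR knockout (limma adjusted p = 0.551). The 6 intervals together spanned -0.44 to 0.46 under the scaling as deposited. The absence of a call in 5xFAD against wild type depended on the scaling: under quantile normalization Mertk was at -0.51 (limma adjusted p = 0.00865), and it was at -0.66 with circRNA and -0.60 in PKR knockout against wild type (limma adjusted p = 0.00033 and 0.000514). Leaving out wild type replicate 3 gave -0.27 with EGFP (limma adjusted p = 0.108), -0.26 with circRNA (limma adjusted p = 0.0766) and -0.09 in PKR knockout (limma adjusted p = 0.487). Leaving out replicate 2 instead gave -0.07 with EGFP and -0.06 with circRNA.

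Axl and Mertk were then set against each other within each library, as log2(Axl FPKM + 1) minus log2(Mertk FPKM + 1), a quantity that a scaling of the whole library barely moves. In wild type it was -3.89, -4.18 and -2.99, an Axl level of 0.0600, 0.0481 and 0.117 of the Mertk level. In 5xFAD with EGFP it was -0.72 and -0.91, ratios of 0.604 and 0.527. It was -0.55, -0.59, -0.37 and -0.64 with circRNA, ratios of 0.681, 0.662, 0.772 and 0.636, and -0.64, -0.30, -0.88 and -0.38 in PKR knockout, ratios of 0.639, 0.812, 0.538 and 0.766. The ratio was below 1 in all 13 libraries, and every 5xFAD library was above every wild type library.

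**Figure D2:**
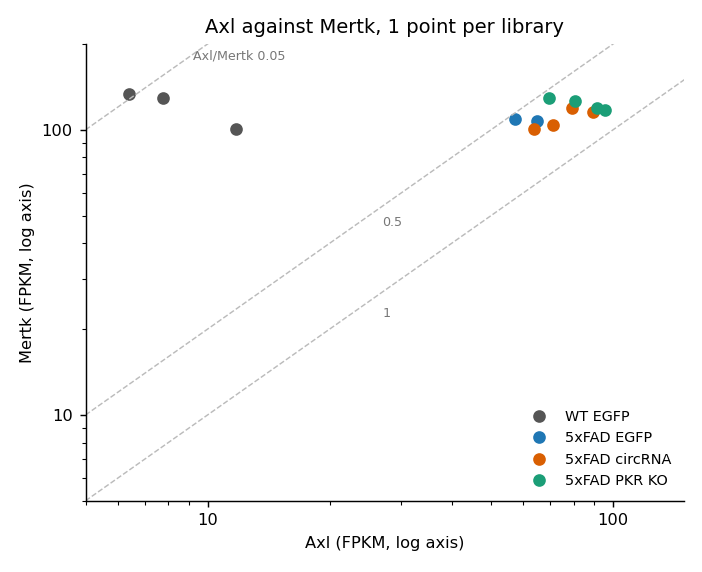
Axl (x axis, FPKM) against Mertk (y axis, FPKM) on log axes, with 1 point for each library and dashed lines at Axl/Mertk ratios of 0.05, 0.5 and 1. The wild type libraries lie at ratios of 0.0481 to 0.117 and the 5xFAD libraries at 0.527 to 0.812, apart along the Axl axis and at like Mertk levels.

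The Axl level relative to Mertk was 2.87 log2 units higher in 5xFAD than in wild type with EGFP (SE 0.37), and the exact two-sided permutation p was 0.1, the smallest that 2 libraries against 3 can give (0.15 adjusted over the 6 comparisons). It was 3.15 higher with circRNA and 3.14 higher in PKR knockout than in wild type, each with an exact permutation p of 0.0286, the smallest that 4 libraries against 3 can give, and 0.0857 after adjustment over the 6 comparisons. These differences were 3.22, 3.50 and 3.49 once wild type replicate 3 was left out. With groups of this size none of the 6 comparisons could reach 0.05 after adjustment. Against EGFP in 5xFAD it was 0.28 higher with circRNA (SE 0.11), without overlap between the groups, and the exact permutation p of 0.0667 was the smallest possible there (adjusted p = 0.133). It was 0.18 without the second EGFP library and 0.37 without the first. It was 0.26 higher in PKR knockout (exact permutation p = 0.2, adjusted p = 0.24), with overlap, and 0.17 without the second EGFP library. Between circRNA and PKR knockout the difference was 0.01 (SE 0.15, exact permutation p = 0.886).

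The shares of the summed receptor FPKM show the same quantities as a composition. Axl made up 5.61%, 4.55% and 10.1% of the receptor sum in wild type, and between 34.0% and 44.6% in the 10 libraries from 5xFAD mice. Mertk made up 86.8% to 94.6% in wild type and 55.0% to 64.6% in 5xFAD. The receptor sum itself was 116 to 141 FPKM in wild type and 167 to 214 FPKM in 5xFAD, a description with no test, since Axl is part of the sum.

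**Figure D3:**
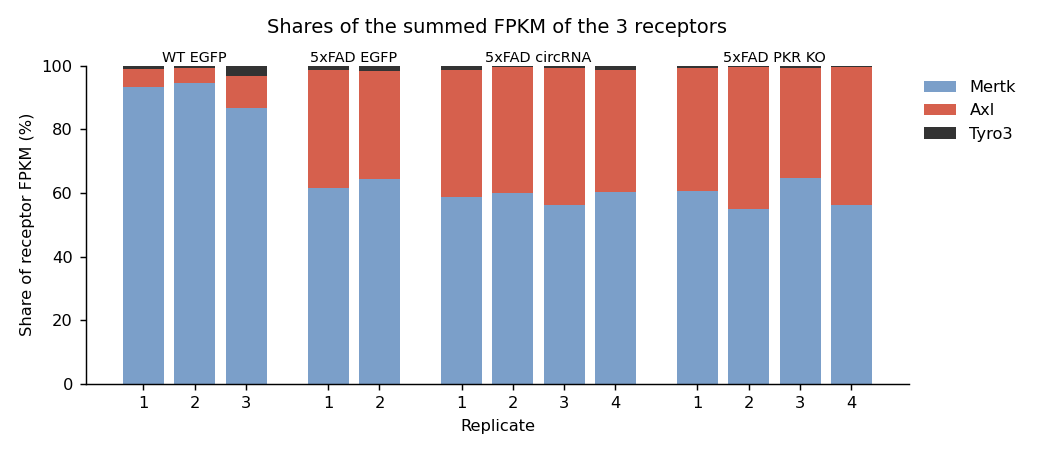
Share of the summed FPKM of Axl, Mertk and Tyro3 held by each receptor (y axis, percent) in each library (x axis, replicate number within group), as stacked bars. The Axl share is 4.55% to 10.1% in wild type and 34.0% to 44.6% in the 5xFAD libraries, where Mertk still holds 55.0% to 64.6%.

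Tyro3, on chromosome 2 (119797733 to 119818104, plus strand), was the lowest member in every library. It was at 1.39, 1.22 and 3.60 FPKM in wild type, 2.66 and 2.58 FPKM in 5xFAD with EGFP, 2.58, 0.696, 1.35 and 2.48 FPKM with circRNA and 1.26, 0.786, 1.30 and 1.05 FPKM in PKR knockout. The highest value was in wild type replicate 3, and the knockout libraries were all below the EGFP pair. In PKR knockout against EGFP the log2 change was -0.79 (SE 0.31, 95% interval -1.47 to -0.11, limma unadjusted p = 0.0260, adjusted p = 0.313), which did not pass. It was 0.32 in 5xFAD against wild type with EGFP (limma adjusted p = 0.591), -0.45 with circRNA against EGFP (limma adjusted p = 0.739; -0.23 without circRNA replicate 2), and -0.47 in PKR knockout against wild type (limma adjusted p = 0.196). With wild type replicate 3 left out, the change against wild type was 0.65 with EGFP (limma adjusted p = 0.129), 0.21 with circRNA (-0.13 with all libraries) and -0.14 in PKR knockout. Over all fits that left out 1 library it ranged from 0.13 to 0.65 with EGFP and from -0.67 to -0.14 in PKR knockout.

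Tyro3 moved with markers of neurons and oligodendrocytes. Its log2 level had a Pearson correlation of 0.92 with that of the summed neuron markers and of 0.91 with that of the oligodendrocyte markers over the 13 libraries, and of 0.91 and 0.89 over the 10 libraries from 5xFAD mice. Over the 13 and the 10 libraries it was 0.43 and 0.255 with astrocyte, 0.20 and -0.225 with endothelial, and 0.30 and 0.096 with mural markers. With border macrophage markers it was 0.047 and 0.045, and with microglial markers -0.66 and -0.52. These points share their library and its purity, and the correlations are given as descriptions. The neuron marker sum was 12.7 and 14.7 FPKM in the EGFP pair, 3.87 to 12.1 with circRNA and 4.89 to 8.54 in PKR knockout. The oligodendrocyte sum was 597 and 641, 281 to 748, and 213 to 359 FPKM in the same order. With the marker covariate, the 5xFAD against wild type change of Tyro3 was 0.62 (limma adjusted p = 0.00962), and the PKR knockout change against EGFP was -0.45 (limma adjusted p = 0.157). The signs against wild type turned, to 0.17 in PKR knockout (limma adjusted p = 0.424) and 0.20 with circRNA (limma adjusted p = 0.269). The PKR knockout change passed with these groups fitted alone (-0.79, limma adjusted p = 0.00806).

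**Figure D4:**
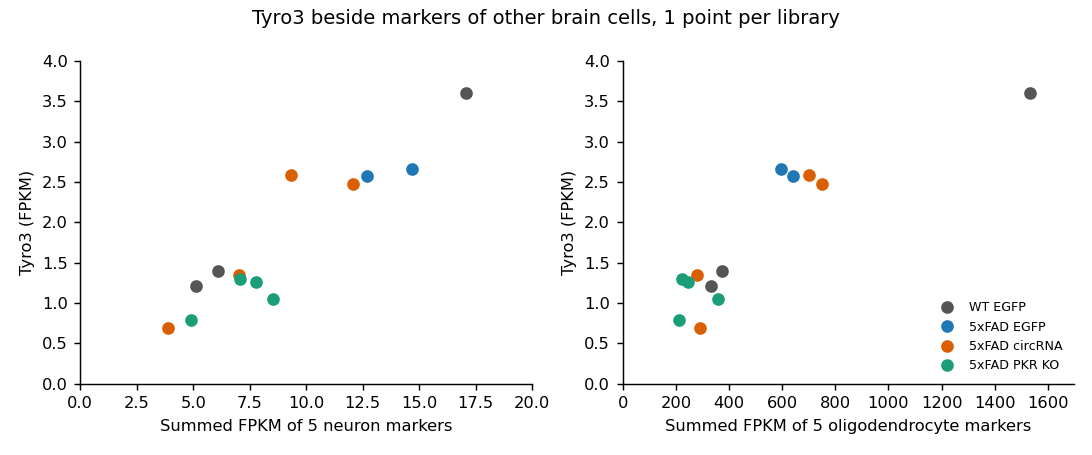
Tyro3 level (y axis, FPKM) against the summed FPKM of 5 neuron markers (left x axis) and of 5 oligodendrocyte markers (right x axis), with 1 point for each library. The wild type point at 3.60 FPKM has the highest sums, 17.1 and 1534 FPKM, and Tyro3 levels of 2.48 to 2.66 FPKM occur only in the 4 libraries with neuron sums of 9.33 to 14.7 FPKM.

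Of the ligands, Gas6 was the more abundant in every library. Gas6, on chromosome 8 (13465374 to 13494490, minus strand), was at 58.5, 54.3 and 54.5 FPKM in wild type and 52.0 and 49.9 FPKM in 5xFAD with EGFP. It was at 55.1, 55.8, 84.0 and 56.6 FPKM with circRNA and at 57.0, 63.8, 56.0 and 55.0 FPKM in PKR knockout. The EGFP pair was below all the other libraries, and circRNA replicate 3 stood above all others. The Gas6 exons overlap those of Tmem255b on the opposite strand, and how counting treated the strand is not given in the sources used here, so its value is uncertain to the extent that reads were shared.

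Gas6 passed in none of the 6 comparisons. The EGFP groups gave a log2 change of -0.13 in 5xFAD (SE 0.16, 95% interval -0.48 to 0.22, limma adjusted p = 0.670). With circRNA against EGFP it was 0.28 (SE 0.15, 95% interval -0.06 to 0.61, limma adjusted p = 0.739). That was the only 1 of the 5 members whose groups did not overlap in this comparison, against 19.3% of all genes. Without circRNA replicate 3 it was 0.13. With PKR knockout against EGFP the Gas6 change was 0.18 (limma adjusted p = 0.619). PKR knockout against wild type gave 0.05 (limma adjusted p = 0.784), but -0.29 under quantile normalization (limma adjusted p = 0.0338). Leaving out wild type replicate 3 gave Gas6 changes of -0.14, 0.13 and 0.04 against wild type.

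Pros1, on chromosome 16 (62854307 to 62929346, plus strand), encodes protein S, which is also an anticoagulant of plasma. Its level was 32.9, 31.2 and 22.2 FPKM in wild type, 32.4 and 30.1 FPKM in 5xFAD with EGFP, 34.3, 40.3, 37.2 and 29.0 FPKM with circRNA and 31.7, 33.5, 32.5 and 35.2 FPKM in PKR knockout. Wild type replicate 3 was the lowest of the 13, and the other wild type libraries lay within the range of the 5xFAD libraries. Pros1 passed in none of the 6 comparisons, with log2 changes of 0.07 to 0.29. The largest was with circRNA against wild type (SE 0.14, 95% interval -0.0026 to 0.59, limma adjusted p = 0.140), and it was 0.12 once wild type replicate 3 was left out. The changes with EGFP and in PKR knockout were then -0.03 and 0.05.

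**Figure D5:**
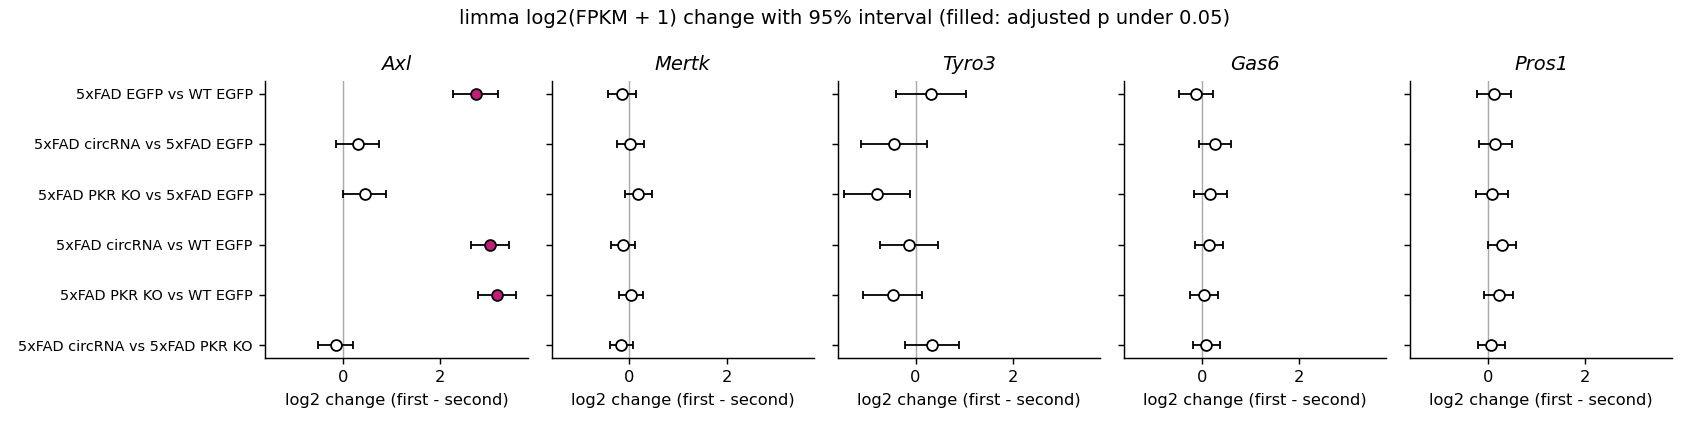
Log2 change of each member (x axis, on the log2(FPKM + 1) scale, first group minus second) in each of 6 comparisons (y axis), as limma estimates with 95% intervals, filled where the adjusted p was under 0.05. The filled points are the 3 Axl changes against wild type, at 2.73, 3.02 and 3.17.

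The order of levels differed in the place of Axl between wild type and 5xFAD. In all 3 wild type libraries it ran Mertk, Gas6, Pros1, Axl and Tyro3, and no neighbours had overlapping ranges. In all 10 libraries from 5xFAD mice Axl was second, after Mertk and before Gas6, Pros1 and Tyro3. The ranges of Axl and Gas6 overlapped only in the circRNA group, where Axl was still above Gas6 in each of the 4 libraries. Summed ligand FPKM was 0.607 to 0.661 of the summed receptor FPKM in wild type and 0.426 to 0.588 of it in 5xFAD. The ligand sums alone overlapped, at 76.7 to 91.4 and 80.0 to 121 FPKM, and Axl is part of the denominator, so the ratio adds nothing to the Axl change. These RNA levels do not measure protein.

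Genes that act with the TAM system were read from 6 lists, with 50 of 62 genes tested. In 5xFAD against wild type with EGFP, 8 rose and 6 fell, where 7.65% of all genes rose and 6.35% fell, and the median log2 change was 0.06, against -0.03 for all genes. These counts include Cd300lf, Cd300lb and Yap1, which reached the floor of 1 FPKM through the groups where they were higher, and so could pass only by differing. Of the other 47 genes, 6 rose and 5 fell. In the list of other phosphatidylserine receptors and bridges, 2 of 13 such genes rose, 2 fell and 9 did not pass. Cd300lf, a phosphatidylserine-binding receptor of myeloid cells, was at 0.291 ± 0.092 FPKM in wild type (SD, n = 3) and at 2.50 ± 0.173 in 5xFAD with EGFP (SD, n = 2). Trem2, the lipid receptor needed for the plaque response of microglia, rose from 73.1 ± 17.9 to 160 ± 13.6 FPKM (limma adjusted p = 0.00561). Stab1, a scavenger receptor for phosphatidylserine, fell from 72.3 ± 13.3 to 33.9 ± 2.49 FPKM (limma adjusted p = 0.00782), and border macrophages, whose markers fell in the same comparison, also express it; their part in this was not tested. The integrin chains Itgb3, which rose, and Itgav, which fell, were named after their values were seen.

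Among the 4 genes of ligand maturation, Vkorc1 rose and 3 did not pass. Vkorc1 recycles the vitamin K that gamma-carboxylation of Gas6 and Pros1 consumes, and its level was 8.11 ± 1.57 FPKM (SD, n = 3) in wild type and 15.0 ± 1.17 FPKM (SD, n = 2) in 5xFAD with EGFP, a log2 change of 0.82 (limma adjusted p = 0.0290). Without wild type replicate 3 it was 0.67 and did not pass (limma adjusted p = 0.0585), while the other 13 calls held. Ggcx, the carboxylase itself, did not pass. Of the 3 receptor shedding genes, Timp3, an inhibitor of the sheddases, fell by 1.55 on the log2 scale (limma adjusted p = 0.0185), while the sheddases Adam10 and Adam17 did not pass. All 4 tested mural markers fell beside Timp3, and their part in its change was not tested.

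Counts in these short lists are to be read beside the 14.0% of all tested genes called in this comparison. Of the 14 tested genes of engulfment and signalling, 0 rose and 2 fell: Elmo1, part of the complex that activates Rac during engulfment, by 0.57 on the log2 scale (limma adjusted p = 0.00701), and Pik3r1, a regulatory subunit of PI3 kinase, by 0.37 (limma adjusted p = 0.0236). Of the 5 tested genes in the list on restraint of cytokine and interferon signalling, 2 rose, and Tnfaip3, an inhibitor of NF-kappaB, did so by 1.12 log2 units (limma adjusted p = 0.00305). Of the 9 tested transcription factors reported upstream of these receptors, Ppard rose by 0.30 (limma adjusted p = 0.0235) and 7 did not pass. Rescaling to the same sum left Ppard at 0.15 (limma adjusted p = 0.18). Yap1, 1 of the genes set apart above, was at 0.865 FPKM in 5xFAD with EGFP, a log2 change of -0.71. Nr1h2, an LXR gene of the kind known to drive Mertk, was among the 7, with a log2 change of 0.08.

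The same 50 genes gave 0 calls with circRNA against EGFP in 5xFAD (limma, 1 with an unadjusted p under 0.05), where 0.0% of all genes were called and 4.83% had such a p. With PKR knockout against EGFP they gave 0 calls (limma, 11 with an unadjusted p under 0.05), where 0.0832% of all genes were called and 13.0% had such a p. Against wild type, of the 47 genes that leave out Cd300lf, Cd300lb and Yap1, 11 rose and 6 fell with circRNA, where 17.8% and 8.05% of all genes did. In PKR knockout 17 rose and 9 fell, where 17.5% and 19.4% did. These splits depended on the scaling: rescaled to the same sum, the 47 genes gave 7 higher and 15 lower with circRNA, 14 and 14 in PKR knockout, and 5 and 11 in 5xFAD with EGFP. Over all 10817 genes the same rescaling gave 995 higher and 4681 lower with circRNA, 1174 and 5421 in PKR knockout, and 708 and 3001 in 5xFAD with EGFP. Between circRNA and PKR knockout 4 of the 50 passed, where 6.19% of all genes did; all 4 were lower with circRNA and are named after their values were seen. They passed in the same direction under each of the 3 other scalings, whereas the calls over all genes went from 463 higher and 207 lower to 148 and 697 under median-ratio scaling. Socs3, a feedback inhibitor of cytokine receptors, was at 21.6 FPKM with circRNA and 59.9 FPKM in PKR knockout (limma adjusted p = 0.00167), and Tnfaip3 was at 23.7 and 57.9 FPKM (limma adjusted p = 0.00284). Jun and Ppard were the others, with log2 differences of -0.71 and -0.34. Of these groups, the labels name a vector only for circRNA.

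The genes whose log2 levels followed Axl most closely over the 13 libraries were Apbb2, Rap2b, Ank, Acaca and Mamdc2, with Pearson correlations of 0.99. These libraries include the gap between wild type and 5xFAD. Mamdc2 was at a mean of 0.701 FPKM in wild type and 26.2 FPKM in 5xFAD with EGFP. It thus reached the floor of 1 FPKM through the 5xFAD groups. Over the 10 libraries from 5xFAD mice the correlations were 0.80, 0.92, 0.71, 0.72 and 0.75. Ank, a transmembrane exporter of pyrophosphate and other anions, went from a mean of 11.2 FPKM in wild type to 99.6 FPKM in 5xFAD with EGFP, and Acaca, the first enzyme of fatty acid synthesis, from 1.57 to 7.16 FPKM. Those closest to Mertk were Inpp5d, Git2, Ttc7, Wdr81 and Pald1, with correlations of 0.98, 0.95, 0.94, 0.94 and 0.93. Over the 5xFAD libraries alone these were 0.96, 0.93, 0.95, 0.92 and 0.90. Inpp5d, which encodes the phosphatase SHIP1 and is an Alzheimer risk locus in people, was at 94.4 FPKM in wild type and 78.7, 82.5 and 99.0 FPKM in the EGFP, circRNA and PKR knockout groups.

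Axl and Mertk had a correlation of -0.23 over all 13 libraries, which fall into a wild type and a 5xFAD cluster, and of 0.52 over the 10 from 5xFAD mice. Tyro3 had one of -0.81 with Axl and -0.77 with Mertk over those 10. All of these correlations are descriptions of libraries that also differ in marker levels of other cells. Mertk had a correlation of -0.91 with the oligodendrocyte marker sum over the same 10 libraries.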

How the data were processed

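Per the labels' protocols, RNA was extracted with TRIzol, depleted with RiboMinus and made into stranded libraries. The authors deposited FPKM values, 1 column for each of 13 libraries. The submitters' processing notes name Bowtie2 2.3.5, HISAT2 2.1.0, featureCounts 1.5.1 and build mm10; the annotation and strand setting are not given in the sources used here. FPKM is divided by library totals, so abundant genes that change can move others. Depth came from the steps of FPKM values below 0.3, with exon lengths from GENCODE M21 (GRCm38): 90.7% of 47089 values were whole fragments within 0.02, against 4% by chance. The recovered fragments for a member numbered 228 (Tyro3) to 38329 (Mertk) in a library, a counting error of 0.51% to 6.62%, which covers counting only.

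Group differences were fitted with limma 3.58.1 under R 4.3.3, on log2(FPKM + 1); a floor of 1 FPKM on the mean over all libraries left 10817 genes, the 5 members among them. All libraries entered 1 model with 4 group means, no covariate and eBayes with trend. On this scale the change of low genes is understated. Alternatives changed the pseudocount, filter, scaling, libraries, weights, covariate or replicate block; voom on recovered fragments was added after seeing the data. On simulated data for 5xFAD against wild type, limma recovered 83.5% of 200 genes changed by 1 log2 unit among 10817. The members, lists and tests were chosen with earlier results of these data known. The text names the 5 members, the 5 genes most correlated with Axl and with Mertk, and, for each list, the 3 called genes with the largest change in 5xFAD against wild type with EGFP; further list genes were named after their values were seen. Some genes that this rule covers are not reported here.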

Additional observations from a re-analysis of the deposited data

Results flagged for a closer look

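Of 12 sets of 4 libraries examined for a value far from the rest (the 5 members and the Axl to Mertk difference, in the circRNA and PKR knockout groups), 1 held such a value. Gas6 in circRNA replicate 3 was at 84.0 FPKM while the other circRNA libraries were at 55.1, 55.8 and 56.6 FPKM, so the gap was 0.949 of the range against a limit of 0.829. Chance gives about 1 such value in 20 sets. The same library had the highest circRNA sums of endothelial (57.2 FPKM) and mural (45.0 FPKM) markers and the highest Axl of its group, and their part in the Gas6 value was not tested.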

How the results depend on the processing

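Axl kept its direction and its side of the threshold in all 60 alternatives that kept every replicate (10 in each comparison). Mertk kept both in 46 of 60, Tyro3 in 53, Gas6 in 54 and Pros1 in 52. Against wild type with EGFP the Axl change ranged from 2.57 to 2.91 in these alternatives, and from 2.55 to 2.95 when 1 library was left out. Against EGFP in 5xFAD the alternatives that kept every replicate gave Axl changes of 0.18 to 0.31 with circRNA and of 0.27 to 0.55 in PKR knockout. Signs turned with the scaling for Mertk, Gas6 and Pros1 in some comparisons, and for Tyro3 only with arrayWeights, the covariate or 1 library left out. Rescaling to the same sum moved the median of all genes to -0.17, -0.20 and -0.24 in the EGFP, circRNA and PKR knockout comparisons with wild type, so changes there are relative to that shift.

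Mertk passed where it had not: with quantile normalization against wild type at -0.51 (EGFP), -0.66 (circRNA) and, with its sign turned, -0.60 (PKR knockout); with rescaling at -0.42 (circRNA); and with arrayWeights at -0.27 (circRNA against wild type) and -0.21 (circRNA against PKR knockout). Its sign also turned, without a call, for circRNA against EGFP under rescaling (-0.10), median-ratio scaling (-0.0684), quantile normalization (-0.14) and arrayWeights (-0.0287), for PKR knockout against EGFP under quantile normalization (-0.0859), and for PKR knockout against wild type under rescaling (-0.20), arrayWeights (-0.062) and the marker covariate (-0.14). Leaving out 1 library gave -0.0229 to 0.0607 for circRNA against EGFP and -0.0925 to 0.11 for PKR knockout against wild type.

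Tyro3 passed in 5xFAD against wild type with the marker covariate (0.62), in PKR knockout against EGFP with the 2 groups alone (-0.79) and arrayWeights (-0.80), and in circRNA against PKR knockout with arrayWeights (0.59). Against wild type its sign turned with circRNA under arrayWeights (0.36) and the covariate (0.20) and in PKR knockout under the covariate (0.17), and ranged from -0.32 to 0.21 with circRNA when 1 library was left out. Gas6 turned with circRNA against wild type under rescaling (-0.14) and quantile normalization (-0.18), in PKR knockout against wild type under rescaling (-0.18) and quantile normalization (-0.29, limma adjusted p = 0.0338), and in circRNA against PKR knockout under median-ratio scaling (-0.0316) and arrayWeights (-0.0296), with -0.0496 to 0.15 when 1 library was left out. Pros1 turned in 5xFAD against wild type under rescaling (-0.0341) and quantile normalization (-0.0027), in PKR knockout against EGFP under quantile normalization (-0.0355) and the covariate (-0.0477), in PKR knockout against wild type under rescaling (-0.0065), quantile normalization (-0.0383) and the covariate (-0.0279), and in circRNA against PKR knockout under median-ratio scaling (-0.0537). Without 1 library Pros1 in 5xFAD against wild type ranged from -0.0347 to 0.24. The Axl to Mertk difference between circRNA and PKR knockout turned under quantile normalization (-0.034) and ranged from -0.10 to 0.10 without 1 library. The cause of these shifts was not tested.

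The number of genes called in 5xFAD against wild type with EGFP (1514; 827 higher, 687 lower) was 3709 (708 higher, 3001 lower) with rescaling, 509 with the 2 groups alone, 2497 with the covariate and 566 to 1998 without 1 library. For circRNA against EGFP it was 8 with the covariate and otherwise 0, with 523 genes at an unadjusted p under 0.05. For PKR knockout against EGFP (9) it was 0 with pseudocount 0.1, no filter, rescaling, quantile normalization and voom, 46 with median-ratio scaling, 577 with the 2 groups alone, 822 with arrayWeights, 23 with the covariate and 0 to 2 without 1 library. Against wild type, circRNA (2796; 1925 higher, 871 lower) gave 5676 with rescaling (995 higher, 4681 lower), 3163 with quantile normalization (1619 and 1544) and 1725 with the 2 groups alone. PKR knockout (3997; 1898 higher, 2099 lower) gave 6595 with rescaling (1174 and 5421) and 4204 with median-ratio scaling (2757 and 1447). For circRNA against PKR knockout (670; 463 higher, 207 lower) it was 683 with rescaling (339 and 344), 845 with median-ratio scaling (148 and 697), 511 with quantile normalization (164 and 347), 3161 with arrayWeights, 1304 with the covariate and 147 to 506 without 1 library.

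Same-numbered libraries shared only a number: the mean correlation of their deviations was 0.02 to 0.33 over the 6 comparisons. With the replicate number as a block, Axl changed by 2.79, 3.04 and 3.19 against wild type, 22 genes passed in PKR knockout against EGFP, and no call on a member changed. Every member had at least 228 fragments in a library, so depth limits Tyro3 most.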

Other observations

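Level ranks over all 19737 genes show where the members sit among transcripts of these libraries. Axl moved from between the 81.4th and 91.2nd percentile in wild type to between the 98.8th and 99.1st in the 5xFAD libraries. Mertk lay between the 99.5th and 99.6th percentile in wild type and between the 99.3rd and 99.4th in the 5xFAD libraries, without overlap. Tyro3 lay between the 44.2nd and 66.5th.

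Gas6 made up 58.1% to 71.0% of the summed ligand FPKM in all 13 libraries, with a Gas6 to Pros1 ratio of 1.38 to 2.45. The lowest ratio was in circRNA replicate 2, which had the highest Pros1 value (40.3 FPKM), and the highest was in wild type replicate 3, which had the lowest (22.2 FPKM).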
